A study of Homo sapiens with 2 samples.

Results

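The 47 genes described here encode the core machinery that builds autophagosomes, the proteins that bring cargo to them and the factors that join them to lysosomes. They were chosen by name, by the step of autophagy at which each acts, with earlier results of these data known. All 47 were found among the 43424 gene symbols of the files, and 44 of them had at least 30 counts summed over both libraries. ULK2, MAP1LC3A and MAP1LC3B2 had 0 counts in both libraries, so the count minimum removed no gene that held a single read.

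The messenger RNA came from Hep3B, an established human hepatocellular carcinoma cell line. The control library came from cells given DMSO, the solvent, and the other library from cells given GLE, an extract of Glehnia littoralis. Both groups carry the genotype label WT and consist of 1 library each, prepared from 500 ng of total RNA with a QuantSeq kit that counts the 3′ ends of transcripts. For the sequenced cells, dose and duration of treatment are not stated in the labels. The labels describe a viability assay with 24 h of exposure at up to 500 µg/mL, and the series names apoptosis as its interest. Total depth was 5618328 counts (control) and 3636351 counts (GLE). All 11 hepatoma markers, among them ALB and AFP, had counts in both libraries, summing to 86743 and 42390 counts (15013 and 11989 CPM, counts scaled to an equal library size, with control first here and below). They did not go 1 way, but most were lower in the GLE library. ALB had 4325 and 2708 CPM, HNF4A 149.9 and 55.7 CPM and APOB 1662 and 636 CPM. AFP, FGB, TTR and GPC3 were also lower, and APOA2 was near equal at 7232 and 7146 CPM. SERPINA1, at 128 and 186 CPM, KRT8 and KRT18 were higher. Their part in the values that follow was not tested. Of the other lists, CD3E and NKG7 among immune genes and VWF, CDH5 and KDR among endothelial and stromal genes were at 0 in both. The 9 endothelial and stromal markers summed to 60 and 53 counts, with PECAM1 at 36 and 1 and COL1A1 at 4 and 29. The 8 immune markers summed to 2866 and 1649 counts, of which LYZ alone held 2711 and 1540.

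Autophagy is the route by which a cell encloses its own cytoplasm in a double membrane, the autophagosome, and delivers it to the lysosome for breakdown. A kinase complex around ULK1 starts the process, a lipid kinase complex around PIK3C3 marks the growing membrane with phosphatidylinositol 3-phosphate (PI3P), and 2 ubiquitin-like conjugation systems attach ATG8 proteins (the LC3 and GABARAP families) to lipid. Cargo receptors such as SQSTM1 bind both cargo and ATG8 proteins, and a set of tethers and SNARE proteins then fuses the closed vesicle with the lysosome. In liver, autophagy is known to supply amino acids in starvation and to clear damaged organelles.

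Taken over all steps, more of these genes were higher than lower in the GLE library. Ratios lay above 1 for 32 and below 1 for 12 of the 44 measured genes, or for 28 and 16 when scaled by total counts. Over all measured genes, 5265 lay above 1 and 5803 below. The largest difference was that of EPG5, a tether of autophagosomes to lysosomes, followed by GABARAPL1, an ATG8 protein, and ATG2B, a lipid transfer protein. At least 2-fold higher values were found for 7 of the 44 measured genes (EPG5, GABARAPL1, ATG2B, ULK1, MAP1LC3B, ATG5 and ATG4D), which is 15.9%, beside 9.51% of all 11068 measured genes. Only ATG10 was at least 2-fold lower, which is 2.27% of these genes beside 10.1% of all measured genes. Ratios here are GLE over control, from counts scaled by the trimmed mean of M-values (TMM) with 0.5 added to each count. The interval after each ratio is an exact 95% Clopper-Pearson interval that covers counting error alone.

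That counting interval lay wholly above 1 for 21 genes (47.7%, against 27.7% of all measured genes) and wholly below 1 for 8 (18.2%, against 30.1%). The median log2 ratio of the 44 genes was 0.24, and that of all measured genes was -0.04. Each condition has a single library, so the conditions were not tested against each other. A difference between these libraries may come from the extract, the culture or the preparation, and these cannot be told apart. More RNA of a gene per cell and a shift in the make-up of the culture likewise cannot be told apart in bulk RNA.

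**Figure D1:**
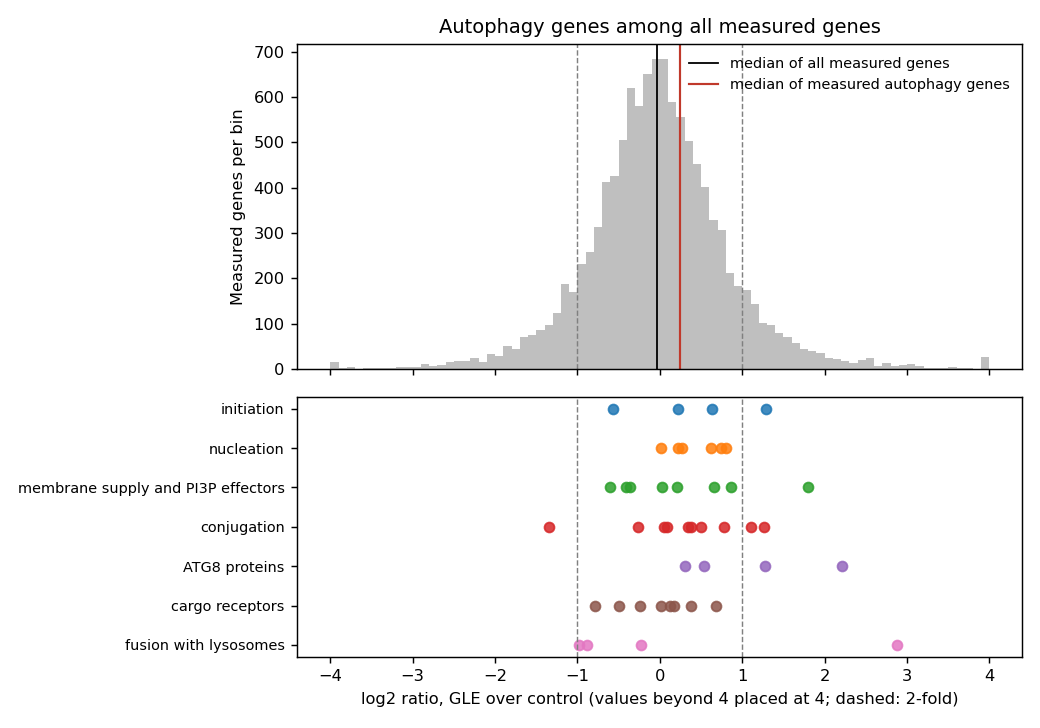
Upper panel, histogram of the log2 ratio of GLE over control for all 11068 measured genes, with the median of all genes at -0.04 and that of the 44 measured autophagy genes at 0.24. Lower panel, each autophagy gene as a point, by step, with dashed lines at 2-fold: 7 points lie at or beyond the upper line and 1 beyond the lower.

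Genes of the initiation complex differed in direction. ULK1, the kinase that receives nutrient signals and starts autophagosome formation, had 509 control and 759 GLE counts, or 88.1 and 215 CPM. Its ratio was 2.44 (2.17 to 2.73), on chromosome 12 (131894622 to 131923150, GRCh38). Reads of its relative ULK2 were absent from both libraries, which places ULK2 below a floor of 3 counts, 0.519 CPM (control) and 0.848 CPM (GLE). The annotation and strand setting of the counting are not stated, so the 0 is one of assigned reads. ULK1 held every counted ULK1 or ULK2 read, with lower bounds of 99.3% and 99.5% for its share.

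RB1CC1 (FIP200), the scaffold of the ULK1 complex, went the same way as its kinase at a smaller size. It had 710 and 674 counts (123 and 191 CPM), a ratio of 1.55 (1.39 to 1.73). ATG13, the regulatory subunit that links ULK1 to RB1CC1, lay on the other side, with 263 and 108 counts (45.5 and 30.5 CPM) and a level 1.49-fold lower (1.19 to 1.88). ATG101, which stabilises ATG13, had 330 and 235 counts (57.1 and 66.5 CPM), and its ratio of 1.16 (0.980 to 1.38) was not distinguishable from 1 at this depth. The kinase and the scaffold were thus higher in the GLE library while the adaptor between them was lower. Summed over the 5 genes, initiation reads gave 314 and 502 CPM, a ratio of 1.602.

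All 6 genes of the nucleation complex had ratios above 1, and none reached 2-fold. Of all 11068 measured genes, 5265 had ratios above 1, and 6 genes are too few to be set against that share. The ratio of BECN1 lay just below 1 under some other scalings, down to a log2 ratio of -0.06 with total counts. For 3 of the 6 the interval lay above 1. ATG14, which directs the lipid kinase to the site of autophagosome formation, had 109 and 112 counts (18.9 and 31.7 CPM) and a ratio of 1.68 (1.28 to 2.21). AMBRA1, a scaffold that binds BECN1, had 42 and 45 counts (7.27 and 12.7 CPM) and a ratio of 1.75 (1.12 to 2.73). PIK3R4 (VPS15), the regulatory kinase-like subunit, had 83 and 78 counts (14.4 and 22.1 CPM) and a ratio of 1.54 (1.11 to 2.12).

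For the other 3 the interval spanned 1. PIK3C3 (VPS34), the lipid kinase itself, had 164 and 117 counts (28.4 and 33.1 CPM) and a ratio of 1.17 (0.912 to 1.49). BECN1, the core subunit bound by BCL2 proteins, had 399 and 247 counts, or 69.1 and 69.9 CPM, a ratio of 1.01 (0.860 to 1.19). UVRAG, which replaces ATG14 in the endosomal form of the complex, had 109 and 80 counts (18.9 and 22.6 CPM) and a ratio of 1.201 (0.887 to 1.62). For these 3 genes no difference was detectable at this depth.

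**Figure D2:**
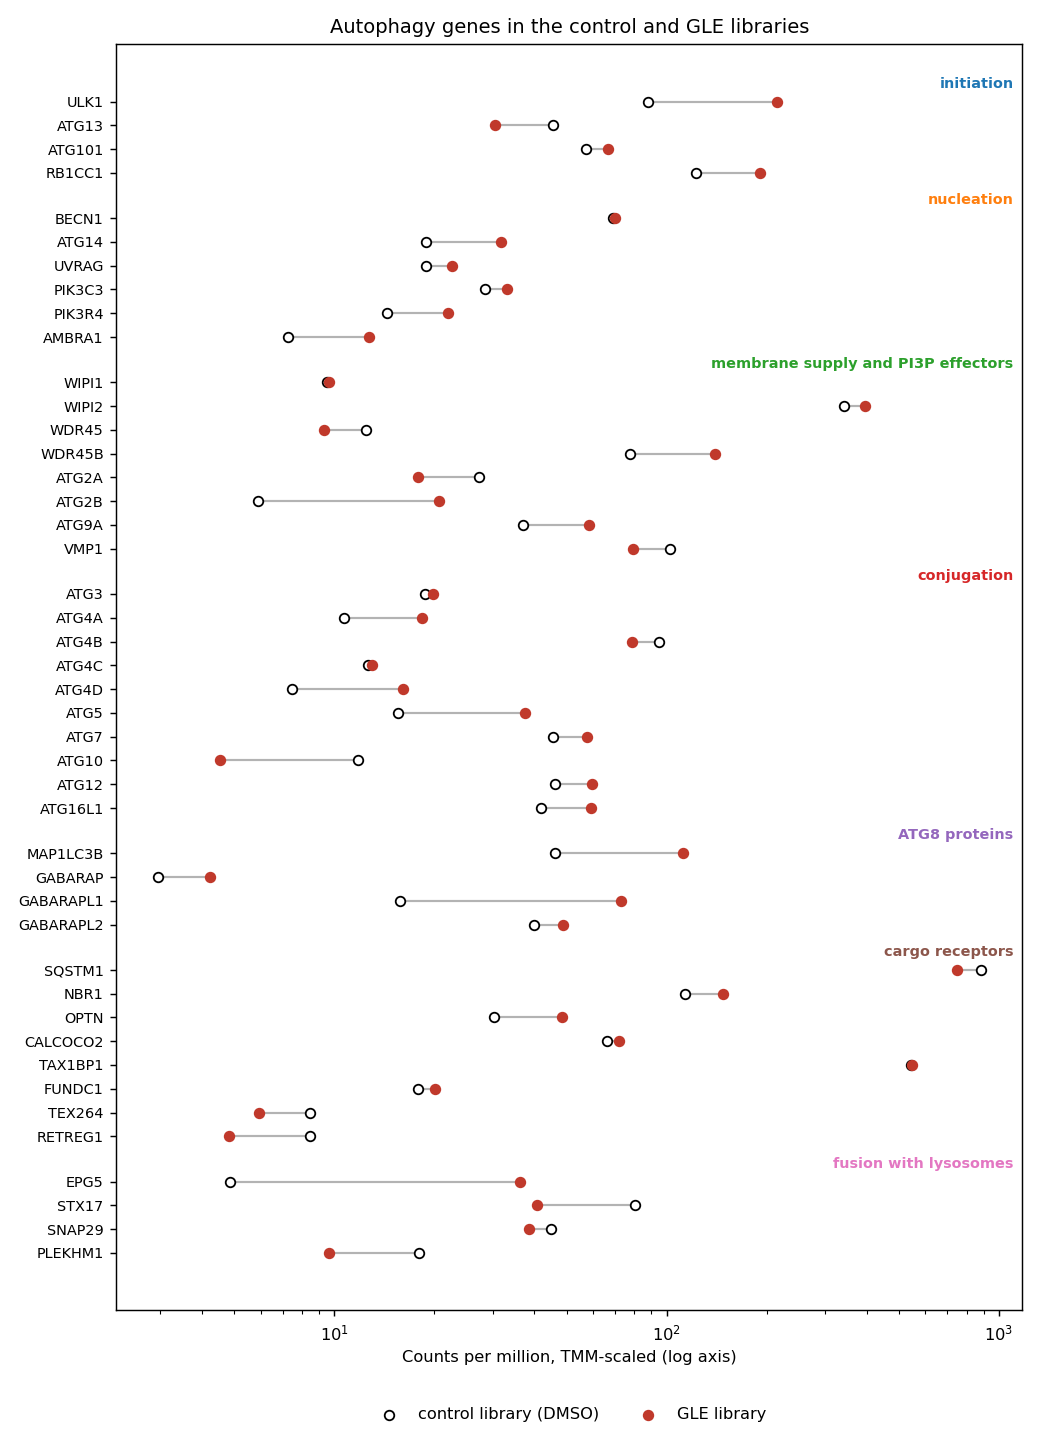
Level of each of the 44 measured genes in CPM on a log axis, with open circles for the control library and filled circles for the GLE library, 1 library each, ordered by step. The grey line joins the 2 values of a gene: it is longest for EPG5, from 4.85 to 36.2 CPM, and near 0 length for BECN1, WIPI1 and TAX1BP1.

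Among genes that supply membrane or read PI3P, close relatives lay on opposite sides of 1. ATG2B, a lipid transfer protein that feeds the growing membrane, had 34 and 73 counts (5.88 and 20.6 CPM) and a ratio of 3.48 (2.31 to 5.44). Its paralog ATG2A had 157 and 63 counts (27.2 and 17.8 CPM) and was 1.52-fold lower (1.13 to 2.08). Of all ATG2A and ATG2B reads, ATG2B took 17.8% of the control reads (exact interval 12.7 to 24.0) against 53.7% of the GLE reads (44.9 to 62.3). Within-family shares of this kind need no scaling between libraries. The reads are 3′ ends and were not divided by transcript length, so the comparison made is of the same share between libraries. The summed ATG2 level was 33.1 and 38.5 CPM, a ratio of 1.16 (0.927 to 1.46), so the sum did not differ beyond counting error.

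One limit applies to ATG2B. It shares 419 exonic bases in GENCODE 29 with GSKIP on the opposite strand, and GSKIP itself had 61 and 121 counts, a ratio of 3.23 (2.36 to 4.49). No strand setting of the counting is stated, and the part of shared reads in either ratio was not tested.

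The WIPI family of PI3P readers showed a smaller shift of the same kind. WDR45B (WIPI3) had 447 and 496 counts (77.4 and 140 CPM) and a ratio of 1.81 (1.59 to 2.07). WDR45 (WIPI4), the partner of ATG2 proteins, had 72 and 33 counts (12.5 and 9.33 CPM) and a ratio of 0.755 (0.480 to 1.15). The interval of WDR45 spanned 1, while its share of the reads of both genes was 13.9% of the control reads (11.02 to 17.1) against 6.24% of the GLE reads (4.33 to 8.65), 2 intervals that do not overlap. WDR45 shares 757 exonic bases with PRAF2 on the same strand, which had 41 and 31 counts, and the part of shared reads in this shift was not tested. WIPI2, which recruits ATG16L1, had 1972 and 1396 counts (341 and 395 CPM) and a ratio of 1.16 (1.08 to 1.24), and WIPI1 had 55 and 34 counts (9.52 and 9.62 CPM) and a ratio of 1.02 (0.639 to 1.58). The share of WIPI2 among WIPI1 and WIPI2 reads was 97.3% and 97.6%, with overlapping intervals.

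ATG9A and VMP1, both lipid scramblases of the autophagosome pathway, lay on opposite sides of 1. ATG9A, carried on the vesicles that seed the membrane, had 214 and 207 counts (37.04 and 58.5 CPM) and a ratio of 1.58 (1.30 to 1.92). It shares 1833 exonic bases with AC068946.2 on the same strand, and the part of shared reads was not tested. VMP1, in the endoplasmic reticulum, had 590 and 280 counts (102 and 79.2 CPM) and was 1.29-fold lower (1.12 to 1.49). The 8 genes of this step thus gave 4 intervals above 1, 2 below and 2 that spanned it.

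Conjugation genes leaned higher, with 1 clear exception. The complex that attaches ATG8 proteins to lipid consists of ATG5 joined to ATG12 and bound to ATG16L1, and all 3 of its genes were higher in the GLE library. ATG5 had 90 and 133 counts (15.6 and 37.6 CPM) and a ratio of 2.41 (1.83 to 3.19), the largest of this step. ATG12 had 266 and 211 counts (46.04 and 59.7 CPM) and a ratio of 1.30 (1.08 to 1.56), and ATG16L1 had 242 and 209 counts (41.9 and 59.1 CPM) and a ratio of 1.41 (1.17 to 1.71).

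The enzymes that carry out both conjugations differed in direction. ATG7, the E1-like enzyme of both systems, had 263 and 204 counts (45.5 and 57.7 CPM) and a ratio of 1.27 (1.05 to 1.53), an interval that spanned 1 when scaled by total counts. ATG3, the E2-like enzyme for ATG8 proteins, had 108 and 70 counts (18.7 and 19.8 CPM) and a ratio of 1.06 (0.773 to 1.44). ATG10, the E2-like enzyme that joins ATG12 to ATG5, had 68 and 16 counts (11.8 and 4.53 CPM) and was 2.54-fold lower (1.49 to 4.80), on chromosome 5 (81972023 to 82256133). It shares 374 exonic bases with RPS23 on the opposite strand, which had a ratio of 1.18 (1.10 to 1.27). The enzyme that joins ATG12 to ATG5 was therefore the lowest of the 44 genes relative to the control, while both of its substrates were higher.

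The ATG4 proteases, which trim ATG8 proteins before conjugation and later release them from lipid, had a like total in both libraries and a different make-up. Their summed level was 126 CPM in each library, a ratio of 1.00 (0.890 to 1.13). ATG4B, the main processing enzyme, had 550 and 279 counts (95.2 and 78.9 CPM) and was 1.21-fold lower (1.04 to 1.40). ATG4D had 43 and 57 counts (7.44 and 16.1 CPM) and a ratio of 2.16 (1.43 to 3.30), ATG4A had 62 and 65 counts (10.7 and 18.4 CPM) and a ratio of 1.71 (1.19 to 2.47), and ATG4C, with 73 and 46 counts (12.6 and 13.01 CPM), had a ratio of 1.03 (0.696 to 1.51). ATG4B took 75.5% of ATG4 reads in the control (72.3 to 78.6) and 62.4% in the GLE library (57.7 to 66.9). ATG4D shares 341 exonic bases with KRI1 on the opposite strand, which had 298 and 177 counts and a ratio of 0.972 (0.801 to 1.17), and the part of shared reads was not tested.

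**Figure D3:**
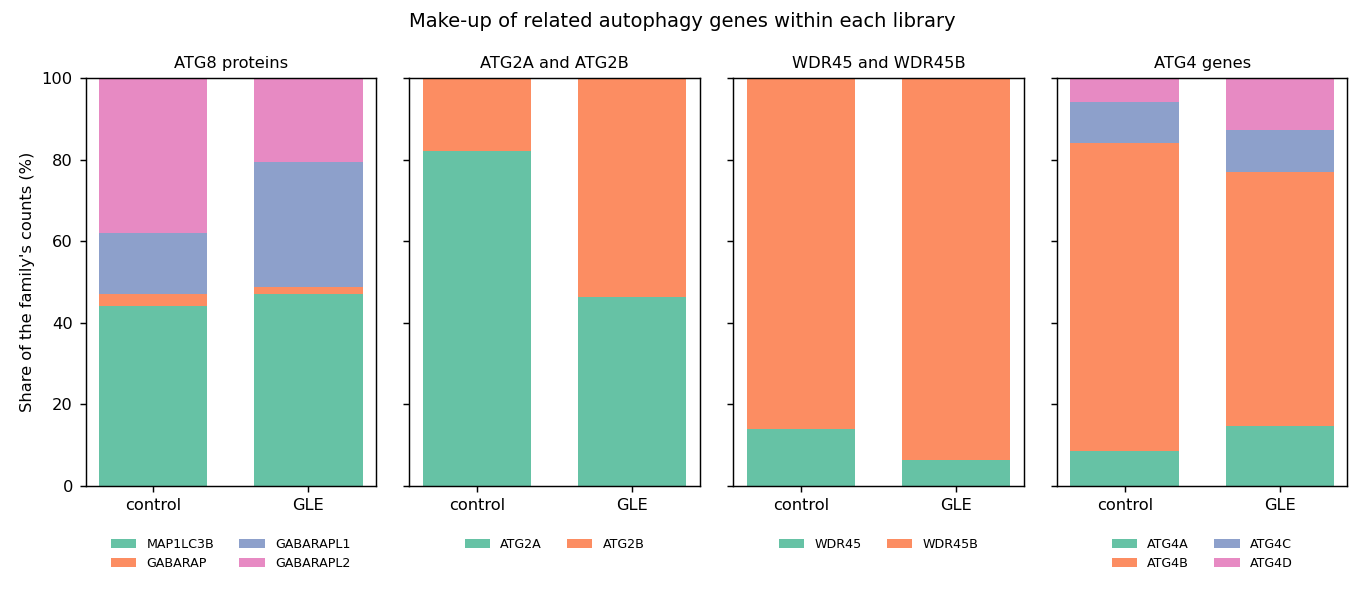
Stacked bars of the share of reads, in percent, held by each gene of the ATG8, ATG2, WDR45 and ATG4 families in the control and the GLE library. With control first, GABARAPL1 takes 15.0% and 30.7% of ATG8 reads, and ATG2B 17.8% and 53.7% of ATG2 reads.

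ATG8 proteins are the ubiquitin-like proteins that decorate the autophagosome and bind receptors. GABARAPL1 had 91 and 258 counts (15.7 and 73.0 CPM), a ratio of 4.62 (3.63 to 5.95), and lies on chromosome 12 (10212877 to 10223128). It shares 329 exonic bases with AC115676.1 on the opposite strand. MAP1LC3B, the LC3 form most used as an autophagosome marker, had 267 and 395 counts (46.2 and 112 CPM) and a ratio of 2.42 (2.06 to 2.83), on chromosome 16 (87392336 to 87404774). GABARAPL2 (GATE-16) had 230 and 173 counts (39.8 and 48.9 CPM) and a ratio of 1.23, with an interval of 1.003 to 1.504 that spanned 1 when scaled by total counts or by upper quartiles. GABARAP had 17 and 15 counts (2.94 and 4.24 CPM) and a ratio of 1.45 (0.670 to 3.07), too few to place. It shares 691 exonic bases with AC120057.2 on the same strand, which is not among the counted symbols. Whether GABARAP reads were left unassigned, and so are missing from the ATG8 sums and shares, was not tested. The 2 ATG8 genes with the largest ratios thus belong to different subfamilies, LC3 and GABARAP.

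Summed ATG8 reads gave 105 and 238 CPM, a ratio of 2.27 (2.04 to 2.53). GABARAPL1 took 15.0% of them in the control (12.3 to 18.1) and 30.7% in the GLE library (27.6 to 33.9). The share of GABARAPL2 was 38.0% (34.1 to 42.0) of control reads and 20.6% (17.9 to 23.5) of GLE reads. Relative to GABARAPL2, GABARAPL1 was 3.76-fold higher in the GLE library (exact conditional interval 2.73 to 5.20), and relative to MAP1LC3B 1.92-fold higher (1.43 to 2.58). The share of MAP1LC3B, 44.1% and 46.97%, had overlapping intervals. MAP1LC3A and the near-identical copy MAP1LC3B2 had 0 counts, as had MAP1LC3C and GABARAPL3, a close relative of GABARAPL1 in sequence. MAP1LC3B shares 150 exonic bases with FBXO31 on the opposite strand, which had a ratio of 0.786 (0.618 to 0.991).

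Promoter sequence is shown for genes with large differences on either side and for ATG3, whose interval spanned 1, so that their motifs can be read side by side. RefSeq windows (GRCh38.p14) from 250 bases before to 50 bases after each start were matched by symbol for 40 of the 47 genes, in 50 windows. EPG5, ATG4D, STX17, RB1CC1, UVRAG, WDR45B and MAP1LC3A had no window and were not searched. Motifs were searched on both strands. The 150 bases just before the start are shown 5′ to 3′ on the gene's strand for GABARAPL1 (chr12:10212727-10212876, plus strand), MAP1LC3B (chr16:87392186-87392335, plus strand), ULK1 (chr12:131894472-131894621, plus strand) and ATG2B (chr14:96363342-96363491, minus strand) among the higher genes. ATG10 (chr5:81971873-81972022, plus strand) is the gene that was lower, and ATG3 (chr3:112561963-112562112, minus strand) is one of 3 members with an E-box. Capitals mark the cAMP response element TGACGTCA, the E-box CACGTG and the GC box GGGCGG or its complement CCGCCC, and runs of capitals in GABARAPL1 and ATG2B hold overlapping GC boxes.
GABARAPL1: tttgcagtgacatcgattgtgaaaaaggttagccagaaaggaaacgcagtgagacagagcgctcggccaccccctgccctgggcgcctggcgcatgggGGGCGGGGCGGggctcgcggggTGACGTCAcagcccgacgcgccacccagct
MAP1LC3B: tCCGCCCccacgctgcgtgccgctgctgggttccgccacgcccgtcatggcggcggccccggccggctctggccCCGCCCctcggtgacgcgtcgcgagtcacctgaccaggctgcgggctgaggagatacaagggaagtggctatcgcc
ULK1: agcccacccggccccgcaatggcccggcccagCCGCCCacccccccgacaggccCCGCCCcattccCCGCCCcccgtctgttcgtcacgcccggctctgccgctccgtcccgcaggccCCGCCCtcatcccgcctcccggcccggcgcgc
ATG2B: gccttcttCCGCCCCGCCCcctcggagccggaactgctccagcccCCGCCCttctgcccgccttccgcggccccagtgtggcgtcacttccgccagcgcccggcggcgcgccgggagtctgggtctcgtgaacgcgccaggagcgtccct
ATG10: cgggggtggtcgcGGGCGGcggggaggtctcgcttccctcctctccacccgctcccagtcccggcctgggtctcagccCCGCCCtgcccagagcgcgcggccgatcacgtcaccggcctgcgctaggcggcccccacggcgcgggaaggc
ATG3: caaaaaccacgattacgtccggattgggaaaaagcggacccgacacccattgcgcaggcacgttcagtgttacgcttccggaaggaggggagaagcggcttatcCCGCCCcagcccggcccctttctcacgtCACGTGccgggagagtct

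The full cAMP response element TGACGTCA was in 1 of the 50 windows, that of GABARAPL1, and in 1.85% of all 35116 windows. The first base of this match lies 30 bases before the start. The E-box CACGTG is the core of the sites read by TFEB and other helix-loop-helix factors. It was found in 3 of the 50 windows, those of ATG3, ATG14 and SNAP29, against 7.26% of all windows. The longer CLEAR element, which contains the E-box, was in none of the 50 windows and in 0.353% of all. The C/EBP-ATF letters TGATGNAA were found in 1 of the 50 windows, that of WDR45, against 3.62% of all windows. The GC box was in 33 of the 50 windows, against 44.95% of all. CCAAT, also searched, was in 16 of the 50 windows, against 34.6% of all. GABARAPL1, MAP1LC3B, ULK1, ATG2B and ATG5 all had a GC box in a window, as had ATG10. A match is a string of letters and not a measured binding site, and the absence of one in 300 bases says nothing of sites elsewhere.

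None of the 8 cargo receptors reached 2-fold, and their median log2 ratio was 0.07, the nearest to 0 of the 7 groups. SQSTM1 (p62), the receptor for ubiquitin-tagged cargo and itself an autophagy substrate, had 5111 and 2648 counts (885 and 749 CPM), which is 1.18-fold lower (1.13 to 1.24). It shares 1582 exonic bases with MRNIP (69 and 62 counts) and 105 with MGAT4B (1724 and 826 counts), both on the opposite strand. NBR1, a receptor that works beside SQSTM1, had 656 and 522 counts (114 and 148 CPM) and a ratio of 1.30 (1.16 to 1.46). OPTN (optineurin), which acts in mitophagy and the clearance of bacteria, had 175 and 171 counts (30.3 and 48.4 CPM) and a ratio of 1.597 (1.29 to 1.98).

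The other 5 receptors showed no difference beyond counting error. TAX1BP1, with 3145 and 1940 counts (544 and 549 CPM), had a ratio of 1.01 (0.952 to 1.07). CALCOCO2 (NDP52), with 383 and 255 counts (66.3 and 72.1 CPM), had a ratio of 1.09 (0.925 to 1.28), and FUNDC1, a mitophagy receptor in the outer mitochondrial membrane, with 103 and 71 counts (17.8 and 20.1 CPM), one of 1.13 (0.821 to 1.54). RETREG1 and TEX264, which are receptors for the endoplasmic reticulum, had the lowest ratios of this group, both with intervals that hold 1. The further receptor list described below lay on both sides, with 9 ratios above 1 and 9 below. In it, SEC62 gave 1.14 (1.06 to 1.23) and RTN3 0.784 (0.707 to 0.868), chosen with their values known. RETREG1 (FAM134B) had 49 and 17 counts (8.48 and 4.81 CPM) and a ratio of 0.578 (0.306 to 1.002), an interval that lay below 1 when scaled by total counts or upper quartiles. TEX264 had 49 and 21 counts (8.48 and 5.94 CPM) and a ratio of 0.710 (0.399 to 1.19). It shares 184 exonic bases with RAD54L2 on the same strand, which had 132 and 126 counts, and the part of shared reads was not tested.

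Fusion genes held both the largest ratio and 3 ratios below 1. EPG5, which tethers autophagosomes to late endosomes and lysosomes, had 28 and 128 counts (4.85 and 36.2 CPM). Its ratio was 7.37 (4.93 to 11.7), and it lies on chromosome 18 (45800581 to 45967329). In GENCODE 29 it shares no exonic base with another gene, unlike 28 of the 47 genes. Overlaps are given here for only some of those 28. STX17, the SNARE protein that EPG5 helps to assemble on the autophagosome, had 465 and 144 counts (80.5 and 40.7 CPM) and was 1.97-fold lower (1.64 to 2.40). That is just short of 2-fold, and it passed 2-fold under some other scalings. Set against STX17 within the same libraries, EPG5 was 14.7-fold higher in the GLE library (9.26 to 24.0). This pair holds the highest and the lowest ratio of the step, so a large value follows from the choice of pair.

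PLEKHM1 and SNAP29, like STX17, had ratios below 1. PLEKHM1, an adaptor between autophagosomes, RAB7 and the HOPS tether, had 104 and 34 counts (17.9995 and 9.62 CPM) and was 1.85-fold lower (1.26 to 2.84). SNAP29, the SNARE that pairs with STX17, had 260 and 136 counts (45 and 38.5 CPM) and a ratio of 0.856 (0.689 to 1.06), below 1 beyond counting error only when scaled by total counts. The median log2 ratio of the 4 fusion genes was -0.56, the lowest of the 7 groups, and that of the 4 measured ATG8 genes, 0.90, was the highest. Each median rests on few genes, and the ATG8 median includes GABARAP, with too few counts to place. The 21 other fusion genes described below had a median of -0.04. Of the 4 fusion genes of this step, EPG5 alone had a ratio above 1.

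**Figure D4:**
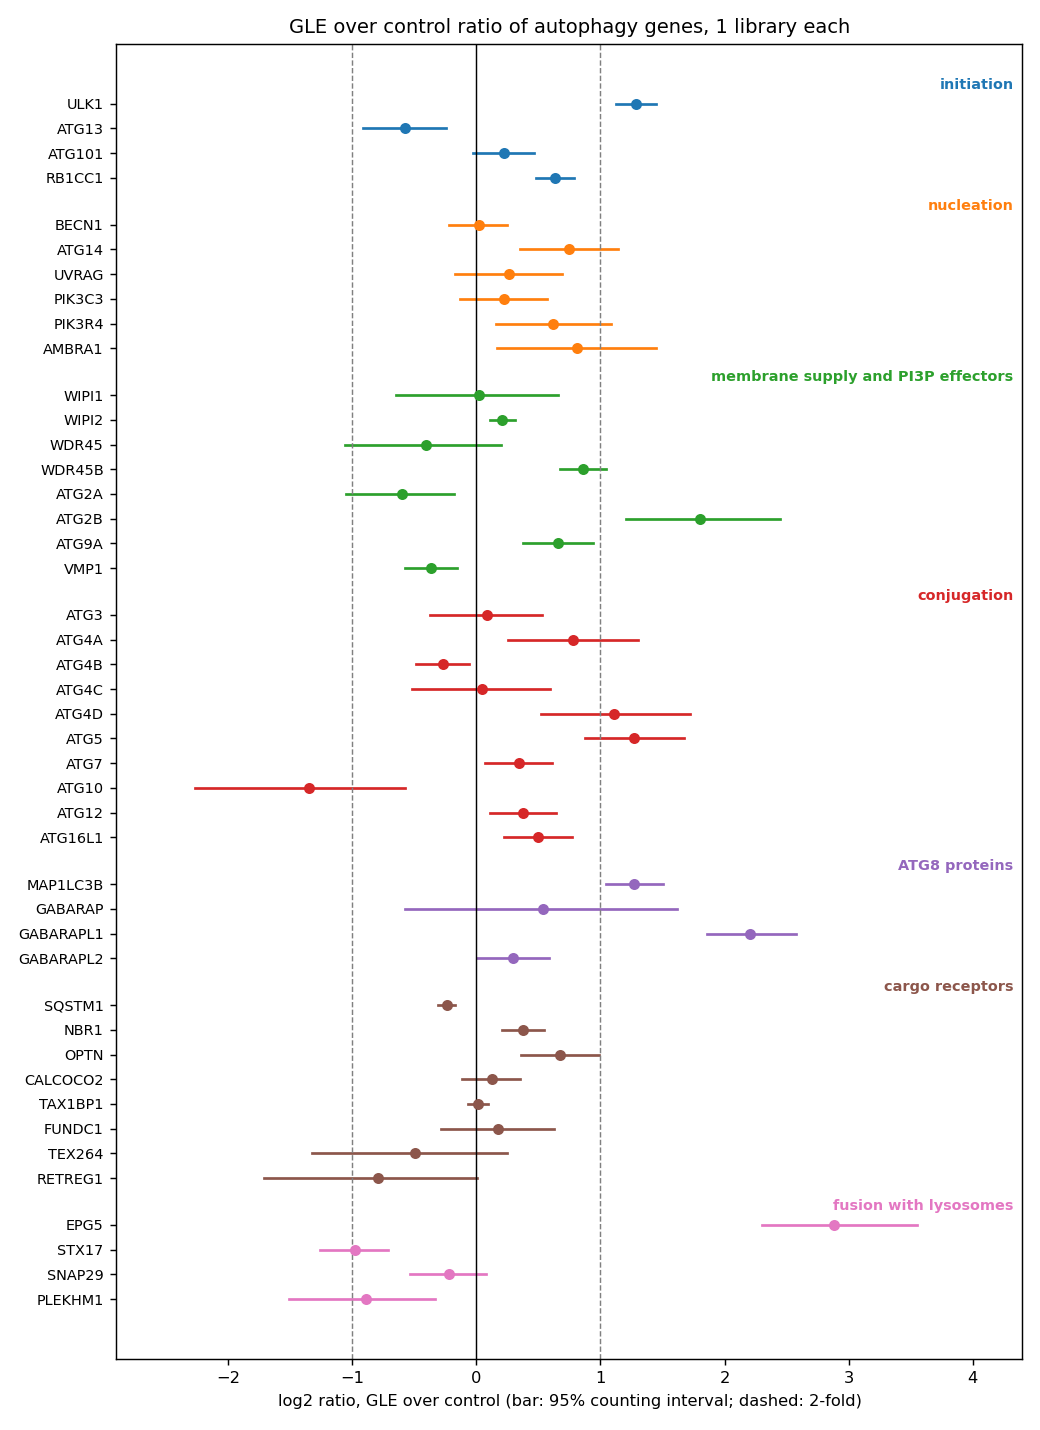
log2 ratio of GLE over control for each of the 44 measured genes, by step, with bars for the 95% counting interval and dashed lines at 2-fold. EPG5 at 2.88 and GABARAPL1 at 2.21 lie farthest to the right, ATG10 at -1.35 farthest to the left, and the cargo receptors all lie between the dashed lines.

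The sides of these intervals depended little on scaling. Of the 21 genes with intervals above 1, 19 stayed there under all 5 scalings of the libraries, and the exceptions were ATG7 and GABARAPL2. All 8 with intervals below 1 (ATG10, STX17, PLEKHM1, ATG2A, ATG13, VMP1, ATG4B and SQSTM1) stayed below.

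Other genes of the pathway, 110 of 111 listed symbols found in the files and 95 of them measured, gave 15 genes higher by 2-fold or more and 2 lower by as much. These are 15.8% and 2.11% of the 95, beside 9.51% and 10.1% of all measured genes, and the single lists are too short to be set against those shares. One list holds stress-induced proteins that restrain mTORC1, the kinase complex that blocks ULK1 in fed cells. All 5 of its measured genes (SESN1, SESN2, SESN3, DDIT4 and TRIB3) were at least 2-fold higher, with ratios from 2.05 to 4.23, and 4 were when scaled by total counts or with a GC trend removed. Other inhibitors of mTORC1, chosen with their values known, lay on both sides, with NPRL3 at 0.702 (0.510 to 0.947) and TSC1 at 1.45 (1.18 to 1.78). SESN2, a sensor of leucine and stress, had 546 and 1415 counts and a ratio of 4.23 (3.83 to 4.68). DDIT4 (REDD1), which acts through the TSC complex, had 239 and 408 counts and a ratio of 2.79 (2.37 to 3.29), and SESN3 one of 2.31 (1.54 to 3.51). This list was drawn up with earlier results on SESN2 in these data known, and its 5 genes are among the 15 counted above. The share of 15.8% thus rests in part on a list informed by these data.

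Genes of mTORC1 and the kinases above it lay on both sides, with 3 of 14 measured genes at least 2-fold higher and 1 lower. Intervals lay above 1 for 6 of the 14 and below 1 for 4. Within mTORC1, MTOR, at 0.816 (0.661 to 0.999), MLST8, at 0.524 (0.356 to 0.743), and RPTOR were lower. AKT1S1 was higher, at 2.44 (1.51 to 4.03). MTOR, MLST8 and AKT1S1 fall outside the naming rule and were chosen with their values known. RPTOR, the subunit of mTORC1 that binds its substrates, had 144 and 39 counts and was 2.24-fold lower (1.58 to 3.31). RHEB, the small GTPase that activates mTORC1, had 76 and 98 counts and a ratio of 2.10 (1.55 to 2.88), and PRKAG1, a subunit of AMPK, had 61 and 88 counts and a ratio of 2.35 (1.68 to 3.32). Of 16 measured genes that sense amino acids at the lysosome, 1 was at least 2-fold higher. This was RRAGC, a Rag GTPase, with 281 and 519 counts and a ratio of 3.02 (2.61 to 3.50). Its dimer partner RRAGA had 567 and 186 counts and was 1.86-fold lower (1.58 to 2.21), and FLCN, which acts on RRAGC, had 229 and 264 counts and a ratio of 1.88 (1.57 to 2.26).

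Transcription factors known to act on autophagy genes were higher by 2-fold or more for 3 of 8 measured genes and lower for 1. DDIT3 (CHOP) had 103 and 578 counts and a ratio of 9.13 (7.42 to 11.4), ATF4 had 2518 and 3368 counts and a ratio of 2.19 (2.08 to 2.30), and FOXO3 had 350 and 506 counts and a ratio of 2.36 (2.06 to 2.72). Of the 8, 4 had ratios above 1 and 4 below, with 3 intervals above 1 and 2 below. TFEB, TFE3, ZKSCAN3, CEBPB and FOXO1 fall outside the naming rule and were chosen with their values known. CEBPB gave 0.801 (0.656 to 0.970) and FOXO1 0.905 (0.770 to 1.06). TFEB, a master regulator of lysosomal genes, gave 0.989 (0.722 to 1.34), its relative TFE3 gave 1.33 (0.921 to 1.92), and ZKSCAN3, a repressor of autophagy genes, was 2.20-fold lower (1.32 to 4.02).

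Among 13 other measured autophagy factors, 2 were at least 2-fold higher and 0 lower. ZFYVE1 (DFCP1), a PI3P-binding marker of the site where autophagosomes form, had 61 and 114 counts and a ratio of 3.04 (2.22 to 4.24). NRBF2, a subunit of the ATG14 form of the lipid kinase complex, had 100 and 145 counts and a ratio of 2.37 (1.82 to 3.09). TBK1, the kinase of OPTN and SQSTM1, had 63 counts in each library and a ratio of 1.63 (1.13 to 2.35).

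The lists next to the cargo receptors and the fusion genes held few large differences. Of 18 other receptor and mitophagy genes, 1 was at least 2-fold higher and 0 lower. NUFIP1, a receptor for ribosomes, had 112 and 138 counts and a ratio of 2.01 (1.56 to 2.61), which fell short of 2-fold under several other scalings. BCL2L13, a mitophagy receptor, had a ratio of 1.66 (1.40 to 1.97), and NIPSNAP1, a mitochondrial protein, was 1.73-fold lower (1.495 to 2.001). None of 21 other fusion genes reached 2-fold, although 1 was higher and 1 lower by that much with the GC trend removed (YKT6 and BORCS7). Of the 21, 9 had ratios above 1 and 12 below, with 5 intervals above 1 and 6 below. YKT6, a SNARE that can act in place of STX17, had 962 and 1136 counts and a ratio of 1.93 (1.77 to 2.10). VAMP7 had a ratio of 1.73 (1.15 to 2.60), and BORCS7, a subunit of the BORC complex that moves lysosomes, was 1.88-fold lower (1.33 to 2.75). VAMP8, outside the naming rule and chosen with its value known, had a ratio of 0.766 (0.645 to 0.905).

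**Figure D5:**
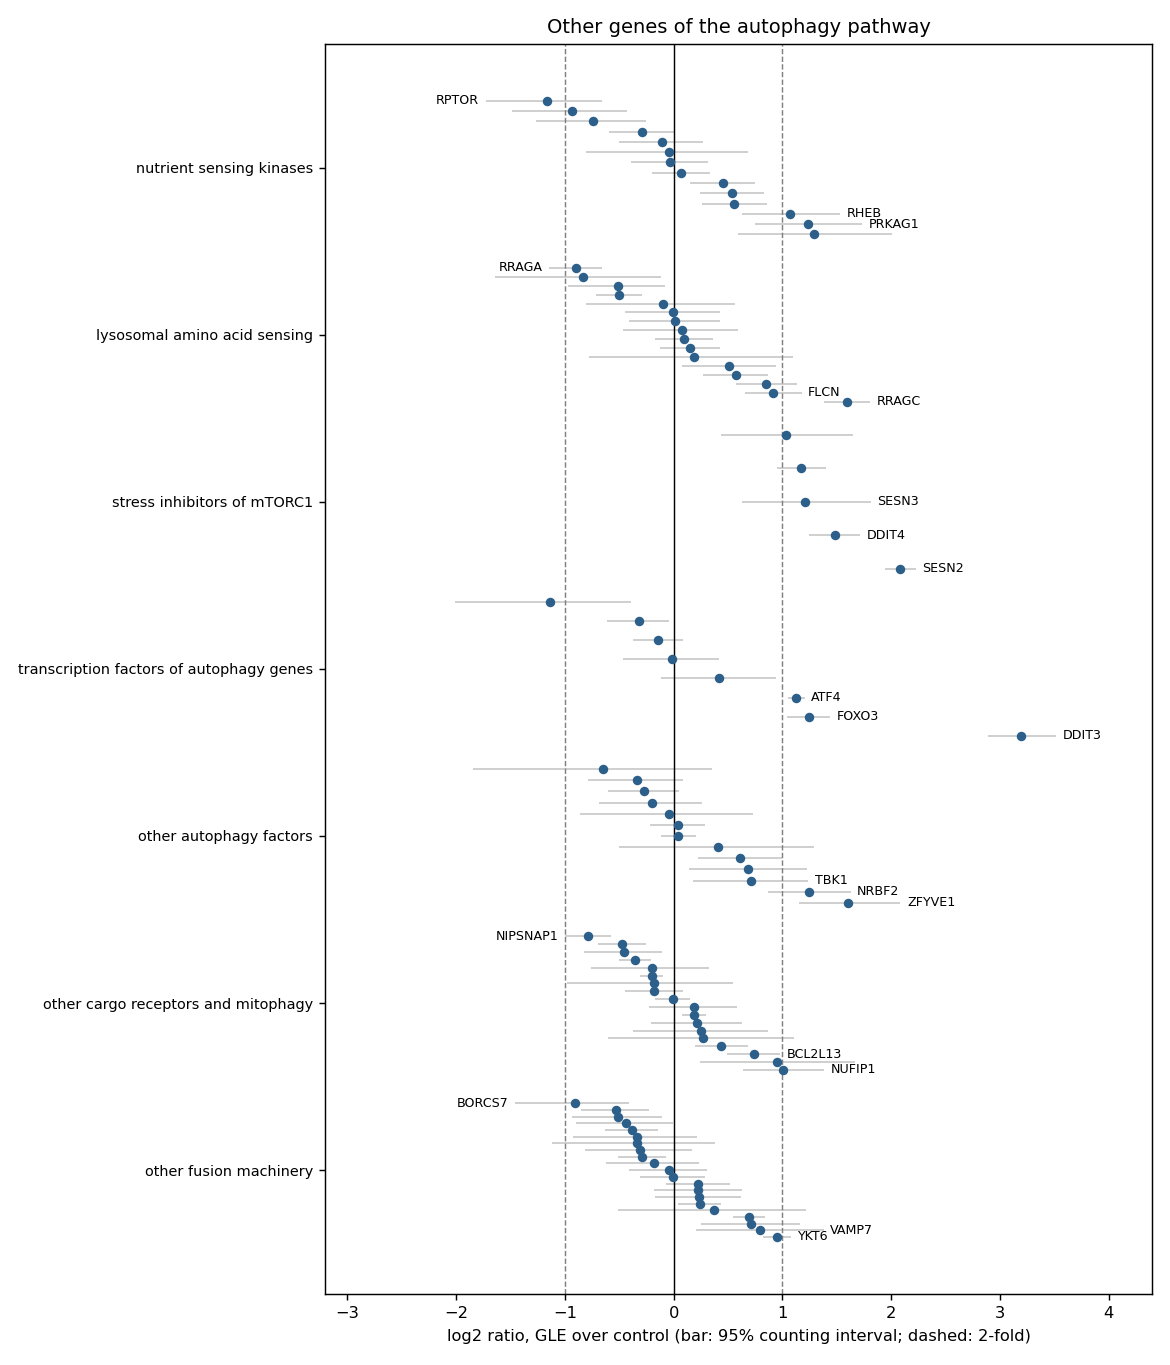
log2 ratio of GLE over control for the 95 measured genes of 7 further lists of the autophagy pathway, with bars for the 95% counting interval, dashed lines at 2-fold and names for up to 3 genes per list. All 5 measured stress inhibitors of mTORC1 lie right of the 2-fold line, and none of the 21 other fusion genes lies beyond it in these TMM-scaled values.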

How the data were processed

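Messenger RNA of Hep3B cells was measured in 1 control (DMSO) and 1 GLE library. The authors deposited 1 raw count per gene symbol and library, in whole numbers and not normalized. The submitters' processing notes list fastp, STAR, HTSeq and GRCh38, without versions, gene annotation or strand setting.

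Counts were scaled with TMM factors of 1.03 (control) and 0.972 (GLE) from edgeR 4.0.16 under R 4.3.3. CPM, ratios and intervals (Python 3.11.15, SciPy 1.17.1) were computed from these, for genes with at least 30 summed counts. The labels describe no molecular identifiers, so intervals and the floor of 3 counts cover counting error only. No test across samples was possible. The computation was tested on simulated counts that held counting error only, so that check does not cover variation between cultures or preparations. Gene lists and members were chosen with earlier results of these data known. All members were to be named, with up to 3 genes of at least 100 counts per further list, those farthest from a ratio of 1. Other settings were further scalings, among them DESeq2 1.42.0 size factors, count minimums of 10, 100 or none, 2 counts added, thinning, and removal of a transcript GC trend (lowess span 0.3, statsmodels 0.14.6), the last chosen after seeing the data. Figures used matplotlib 3.10.9.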

Additional observations from a re-analysis of the deposited data

How the results depend on the processing

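No paired analysis was possible because each group holds 1 library, and no replicate could be left out. The number of members at least 2-fold lower, 1 in the values above (ATG10), was 2 when scaled by total counts, by upper-quartile factors or by library sizes without mitochondrial and the 20 most abundant genes, with the deeper library thinned to the shallower, and with the GC trend removed. STX17 was the added gene in each case. It was 0 at a minimum of 100 counts, because ATG10 has fewer. The 7 higher genes were the same under every setting but thinning, which gave 6, without ATG4D. The median log2 ratio of the members ran from 0.16 (total counts) to 0.28 (minimum of 100 counts). No gene whose interval excluded 1 changed direction under these settings. Of the log2 ratios of single members under them, 473 stayed within the counting interval and 4 did not, for SQSTM1 (-0.32 with total counts, -0.13 with the GC trend removed) and for ULK1 (1.51) and RB1CC1 (0.46) with the GC trend removed. Of the counts for the further pathway lists, 135 stayed within 1.5 times and 19 did not, each a change between 0 and 2 genes. Depth limits what can be said of GABARAP, WDR45, WIPI1, ATG4C, TEX264 and RETREG1, whose intervals hold 1 and span more than 2-fold.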

Other observations

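Some pathway genes under the count minimum, chosen with their values known, had unequal counts. ATG16L2, a relative of ATG16L1, had 20 control counts and 1 GLE count, a ratio of 0.1196 (0.00197 to 0.511). DEPTOR, an inhibitor inside mTORC1, had 12 and 1 counts, a ratio of 0.196 (0.00319 to 0.920), and CASTOR1, an arginine sensor, had 8 and 0. CALCOCO1, a relative of CALCOCO2, had 1 and 6 counts, a ratio of 7.08 (1.19 to 451).

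The median transcript GC content was 47.1% for the 44 measured members and 47.8% for the 10355 measured genes with a coding transcript in GENCODE 29. Over all measured genes it was 44.5% for those at least 2-fold higher and 51.9% for those at least 2-fold lower, while the 7 higher members had a median of 48.4%.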
